A study of Mus musculus with 32 samples.

Results

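The peroxiredoxins, glutathione peroxidases and catalase are the enzymes that reduce hydrogen peroxide and other hydroperoxides, and their transcripts were followed in 3T3-L1 adipocytes, mouse cells differentiated in culture from a fibroblast-like preadipocyte line, in which peroxide removal had been put under pressure. The 10 genes were Prdx1 to Prdx6, Gpx1, Gpx3, Gpx4 and Cat, chosen by name, and a gene counted as measured if a probe set of the array's annotation carried its symbol and no other. By that rule 7 of the 10 were measured, out of 21506 genes in all: Prdx2, Prdx3, Prdx4, Gpx1, Gpx3, Gpx4 and Cat, each by 1 probe set. The only probe set for Prdx1 also carries the symbols AV051173 and Gm21399 and is described separately. Prdx5 and Prdx6 are not listed in the annotation used and were not analysed here.

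Adipocytes were exposed to auranofin at 1 µM, to BCNU at 100 µM, or to both drugs, and RNA was taken at 2, 4, 8 and 24 h. Controls without either drug were collected at 4, 8 and 24 h, and untreated cells at the start (0 h). The 2 h treatments were set against the cells of 0 h, and every later treatment against the control of its own time. Each of the 16 groups had 2 arrays (32 in all). Whether the arrays of a group stem from independent cultures is not stated in the labels, and the p-values then reflect only the spread between these arrays, which may be technical. The line is a single clonal model of an adipocyte, and bulk RNA cannot tell fewer cells of a type from less RNA per cell.

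Peroxiredoxins reduce peroxide with a reactive cysteine that in most of them thioredoxin then restores, and thioredoxin is itself reduced by thioredoxin reductase, the enzyme auranofin inhibits. Glutathione peroxidases draw on glutathione, which glutathione reductase keeps reduced, and BCNU inhibits glutathione reductase. Catalase, in the peroxisome, splits hydrogen peroxide without either cofactor. In adipocytes these enzymes work against peroxide from mitochondria, NADPH oxidases and peroxisomal fatty acid oxidation, and several genes of peroxide defence are known targets of the transcription factor NRF2, which binds the antioxidant response element.

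None of the 7 genes passed the test in any of the 30 comparisons of the design (210 values), where a call required an adjusted p under 0.05 in limma and an absolute log2 change over 0.5. Over all genes the share called ran from 0% to 11.3% between these comparisons. A count of 0 among 7 genes lies close to such shares and does not set these genes apart. For Prdx2, Prdx4, Gpx4 and Cat the 95% intervals of all 12 treatment changes against control lay inside 0.5 log2 units on either side of 0. Over the same hours 1 to 5 of 16 recycling enzymes and partners rose with both drugs, and the sestrin gene Sesn3 fell at 4, 8 and 24 h. Over all genes 1.49% to 11.3% were called with both drugs between 2 and 24 h, in either direction. The 1 partner that rose at 2 h was Sesn2, and Txnrd1 rose by 1.56 ± 0.112 (log2 change ± SE) at 24 h. In the designed comparisons 3 member values passed on adjusted p alone: a higher Prdx3 with both drugs than in control at 24 h, and a higher Gpx1 with both drugs than with auranofin at 8 and 24 h. The share of all genes passing on adjusted p alone is not given here. All 3 were lost when limma was fitted to only the groups compared (adjusted p = 0.2165, adjusted p = 0.1755 and adjusted p = 0.2521). Such fits leave the changes as they were and rest on fewer arrays. They also lost 22 of the 30 called values of the recycling partners, so the loss does not set the member values apart.

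The 300-base promoter windows of 4 genes are shown, picked with their values known: 2 peroxidases, and Srxn1 and Txnrd1, which rose. Whether the motif bears on the changes was not tested. They come from RefSeq (GRCm38.p6), 5′ to 3′ on the gene's strand, and capitals mark a match to the antioxidant response element searched as TGACNNNGC on both strands. Prdx3 (chr19:60874489-60874788, minus strand) and Gpx1 (chr9:108338830-108339129, plus strand) hold no match, and Srxn1 (chr2:152105274-152105573, plus strand) and Txnrd1 (chr10:82858956-82859255, plus strand, 1 of 3 annotated start sites) hold 1 each. The windows of the other Txnrd1 start sites hold none. The Srxn1 match begins at base 29 of the transcribed part.
Prdx3: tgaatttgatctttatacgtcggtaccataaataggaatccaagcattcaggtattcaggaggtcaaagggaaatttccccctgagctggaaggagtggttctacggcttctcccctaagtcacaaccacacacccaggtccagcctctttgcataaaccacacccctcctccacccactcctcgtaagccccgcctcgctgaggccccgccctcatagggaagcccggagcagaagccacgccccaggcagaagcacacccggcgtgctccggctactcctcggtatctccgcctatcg
Gpx1: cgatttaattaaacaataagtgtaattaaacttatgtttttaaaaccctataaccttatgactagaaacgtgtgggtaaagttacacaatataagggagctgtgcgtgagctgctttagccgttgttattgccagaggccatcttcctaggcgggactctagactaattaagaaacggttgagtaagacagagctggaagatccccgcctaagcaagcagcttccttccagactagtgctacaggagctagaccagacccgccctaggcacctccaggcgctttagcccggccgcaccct
Srxn1: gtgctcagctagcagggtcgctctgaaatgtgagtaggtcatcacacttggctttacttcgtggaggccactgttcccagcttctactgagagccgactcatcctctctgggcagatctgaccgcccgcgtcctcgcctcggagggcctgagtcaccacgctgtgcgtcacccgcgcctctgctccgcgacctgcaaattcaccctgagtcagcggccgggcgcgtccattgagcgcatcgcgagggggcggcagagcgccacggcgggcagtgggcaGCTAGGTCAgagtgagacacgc
Txnrd1: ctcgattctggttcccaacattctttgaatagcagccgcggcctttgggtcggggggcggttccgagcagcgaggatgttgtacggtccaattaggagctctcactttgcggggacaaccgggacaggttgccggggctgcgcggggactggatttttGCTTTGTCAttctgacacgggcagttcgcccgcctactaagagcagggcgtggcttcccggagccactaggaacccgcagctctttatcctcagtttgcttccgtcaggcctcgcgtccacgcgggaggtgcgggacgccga
The motif occurs in 12.4% of 32851 windows of this length and in a window of 14.0% of genes. Of the 9 listed genes with a window it was found in Prdx1 alone, and of 15 recycling partners with a window in 3, Srxn1, Txnrd1 and Sesn2. The window of Txn1, which rose by 0.65 at 24 h with both drugs, holds none. The Srxn1 window also holds 2 matches to TGANTCA, an AP-1 site present in 7.81% of windows, and the windows of Prdx3, Gpx1 and Txnrd1 shown here hold none. A match describes letters and is not evidence of binding.

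The array values are log2 expression after RMA normalization by the authors, and differences in level between genes were not compared because probe sets differ in response. Of all probe sets, 22030 carried 1 symbol. Array medians lay between 3.55 and 3.69, and the upper bound taken for background, the highest lower quartile of any array, was 2.30. Replicate arrays correlated at 0.992 to 0.995 over all probe sets. The adipocyte label was borne out by its markers: 11 of 12 listed markers were measured and none was under background, with a mean log2 level between 11.4 and 11.7 in every array at 8 and 24 h. Preadipocyte and fibroblast markers were also well expressed, with a mean of 9.76 to 9.82 in the control arrays at 24 h. The macrophage markers were mixed: Lyz2 (control mean 4.995), Cd14 (4.76) and Cd68 (4.45) were above background, and Csf1r (2.47), Ptprc (2.26), Itgam (2.17) and Adgre1 (1.98) were at or near it. Of the endothelial markers Pecam1 (3.93) was above background, and Cdh5 (2.31), Kdr (2.18), Tek (2.17) and Tie1 (1.75) were not clearly so.

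**Figure D1:**
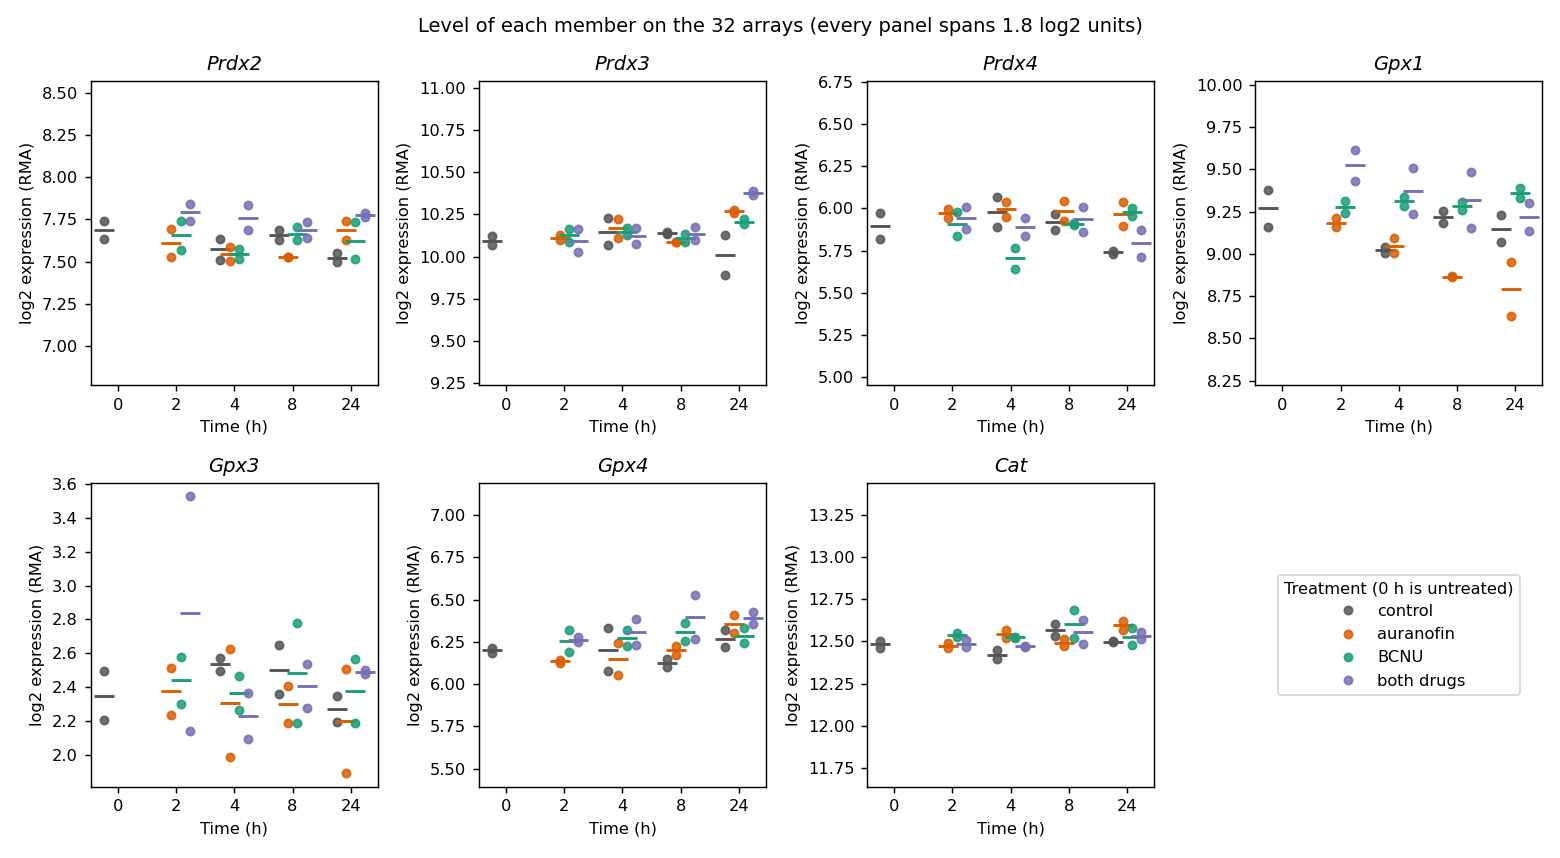
Log2 expression (RMA) of the 7 measured genes against time in hours, 1 panel per gene, with a point for each array, a short bar for the mean of the 2 arrays of a group, and colours for control (untreated at 0 h), auranofin, BCNU and both drugs. The auranofin arrays of Gpx1 sit lowest at 8 and 24 h, the treated arrays of Prdx3 sit above control at 24 h, and the Cat panel is nearly flat.

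Of the cytosolic and organelle peroxiredoxins, Prdx3, the mitochondrial enzyme (GRCm38.p6 chromosome 19, 60864066 to 60874538), had the lowest adjusted p. Its log2 expression was 10.13 and 9.89 in the control arrays at 24 h, 10.28 and 10.26 with auranofin, 10.19 and 10.22 with BCNU, and 10.39 and 10.37 with both drugs. All 6 treated arrays lay above both controls, and the second control array was the lowest of all 32. With both drugs the difference from control was 0.37 ± 0.0877 (log2 change ± SE; 95% interval 0.19 to 0.55), a 1.29-fold higher level with adjusted p = 0.00618, which passed on p but not on size. Without that control array the difference was 0.25 (adjusted p = 0.146), and without the first both-drugs array it was 0.36 (adjusted p = 0.0505). Against the same controls auranofin gave 0.26 (adjusted p = 0.196) and BCNU 0.20 (adjusted p = 0.581).

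Before 24 h the changes of Prdx3 with both drugs were small, at -0.002, -0.03 and -0.004 at 2, 4 and 8 h. The co-treated arrays of these times lay between 10.03 and 10.17. The untreated and control arrays of 0, 4 and 8 h lay between 10.07 and 10.23, and 1 co-treated array at 2 h (10.03) was below them. The co-treatment effect at 24 h exceeded the mean effect at 4 and 8 h by 0.39 ± 0.107 (adjusted p = 0.0526), and this value ranged from 0.27 without the second 24 h control array (adjusted p = 0.334) to 0.51 without the first (adjusted p = 0.0232). Leaving out either 24 h control array thus moved this value more than leaving out any other array. At the same time the 12 preadipocyte and fibroblast markers had all fallen with both drugs, with a mean log2 level of 7.28 and 7.46 against 9.76 and 9.82 in control, and their part in the Prdx3 value was not tested. The 7 measured macrophage markers had a mean of 3.92 and 4.12 against 3.29 and 3.36 in control, and the 5 endothelial markers 3.06 and 3.27 against 2.36 and 2.43. The 11 adipocyte markers had a mean of 11.44 to 11.48 against 11.58 to 11.66, and none of them was called.

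Prdx2, a cytosolic peroxiredoxin (chromosome 8, 84969622 to 84974811), ranged from 7.50 to 7.84 over the 32 arrays. Its lowest value was a 24 h control array and its highest a co-treated array at 2 h. At 24 h it was 7.55 and 7.50 in control and 7.79 and 7.77 with both drugs, with no overlap, a difference of 0.25 ± 0.0968 that did not pass the test (95% interval 0.05 to 0.46; adjusted p = 0.0973). Its 12 changes against control ran from -0.13 to 0.25, and no interval went beyond 0.46 in size. Pseudogenes are annotated for Prdx2 and Gpx4, and whether these probe sets tell them apart was not tested.

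Prdx4, the peroxiredoxin of the endoplasmic reticulum (chromosome X, 155323918 to 155342272), was lowest with BCNU at 4 h, at 5.64 and 5.77 against 5.89 and 6.07 in control. The difference was -0.27 ± 0.0989 (adjusted p = 0.261), and the arrays did not overlap. At 24 h the control arrays were 5.75 and 5.73, those with auranofin 6.04 and 5.90, those with BCNU 5.95 and 6.002, and those with both drugs 5.71 and 5.87. Each single drug thus sat above control and the co-treated arrays straddled it, and the departure of the co-treatment from the sum of the single-drug effects was -0.41 ± 0.140 (adjusted p = 0.125). In the control series Prdx4 was within 5.73 to 6.07.

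Gpx1, the cytosolic and mitochondrial glutathione peroxidase and a selenoprotein (chromosome 9, 108339080 to 108340342), varied most among the listed genes measured above background: its group means spanned 0.73 log2 units, where those of Prdx2, Prdx3, Prdx4, Gpx4 and Cat spanned 0.18 to 0.37. Over all genes 70.6% had a span no larger than that of Gpx1. At 8 h its log2 expression was 9.18 and 9.26 in control, 8.87 and 8.87 with auranofin, 9.31 and 9.26 with BCNU, and 9.16 and 9.48 with both drugs. At 24 h it was 9.23 and 9.07 in control, 8.63 and 8.95 with auranofin, 9.33 and 9.39 with BCNU, and 9.30 and 9.14 with both drugs. The auranofin arrays were the lowest at both times and overlapped no other group.

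Against control, Gpx1 with auranofin differed by -0.35 ± 0.125 at 8 h (95% interval -0.61 to -0.09; adjusted p = 0.189) and by -0.36 at 24 h (interval -0.62 to -0.10; adjusted p = 0.220), neither of which passed. With BCNU it was 0.29 above control at 4 h (adjusted p = 0.401), where the arrays were 9.34 and 9.28 against 9.04 and 9.003. With both drugs it was 0.35 above control at 4 h (adjusted p = 0.0918), where the arrays were 9.51 and 9.24. At 2 h the co-treated arrays, 9.61 and 9.43, were above the untreated 0 h arrays of 9.38 and 9.16, and the difference of 0.26 was called only when the 4 h control stood in for the 0 h cells, where it was 0.50 (adjusted p = 0.0330).

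Between treatments, Gpx1 was higher with both drugs than with auranofin alone by 0.45 ± 0.125 at 8 h (adjusted p = 0.0168) and by 0.43 at 24 h (adjusted p = 0.0309), again past the p threshold and short of 0.5. The 8 h value fell to 0.29 without the second both-drugs array and was 0.45 without either auranofin array. In these fits it no longer passed on p, and without the first both-drugs array it rose to 0.62. The 24 h value fell to 0.27 without the first auranofin array and to 0.34 without the first both-drugs array, and no longer passed. It was 0.59 without the second auranofin array and 0.51 without the second both-drugs array. The 4 comparisons of auranofin with BCNU were added after these values had been seen. In them Gpx1 was lower with auranofin by 0.57 ± 0.125 at 24 h, 1.48-fold (95% interval of the log2 change -0.83 to -0.31; adjusted p = 0.0137), the only call for any of the 7 genes, and by 0.42 at 8 h (adjusted p = 0.118). The 24 h call was lost without the first auranofin array (-0.41, adjusted p = 0.269), the first BCNU array (-0.60, adjusted p = 0.0651) or the second BCNU array (-0.54, adjusted p = 0.131). The adipocyte marker mean was 11.39 to 11.51 with auranofin and 11.68 to 11.70 with BCNU at 24 h, and its part in this difference was not tested.

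Gpx4, the selenoprotein that reduces lipid hydroperoxides in membranes (chromosome 10, 80047166 to 80056439), was 6.15 and 6.10 in control at 8 h and 6.27 and 6.53 with both drugs, with no overlap. The difference of 0.28 ± 0.105 did not pass (95% interval 0.06 to 0.49; adjusted p = 0.0811). Its other 11 changes against control were smaller. Gpx3, the secreted plasma glutathione peroxidase (chromosome 11, 54902854 to 54910387), averaged 2.40, close to the background bound of 2.30. It was 3.53 on 1 co-treated array at 2 h and 2.14 on its replicate, and its intervals reached from -0.97 to 1.15, the widest covering changes of up to 2.22-fold.

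Cat, encoding catalase (chromosome 2, 103453904 to 103485153), moved least. Its 32 arrays lay between 12.39 and 12.69 on a scale that ended at 13.76, and its group means spanned 0.18 log2 units, less than the span of all but 0.353% of genes. The 12 changes against control ran from -0.07 to 0.12, with intervals from -0.24 to 0.28, so that a change beyond 1.22-fold in either direction lay outside all of them. These intervals are of array signal, and whether it follows the transcript level this high on the scale was not tested.

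**Figure D2:**
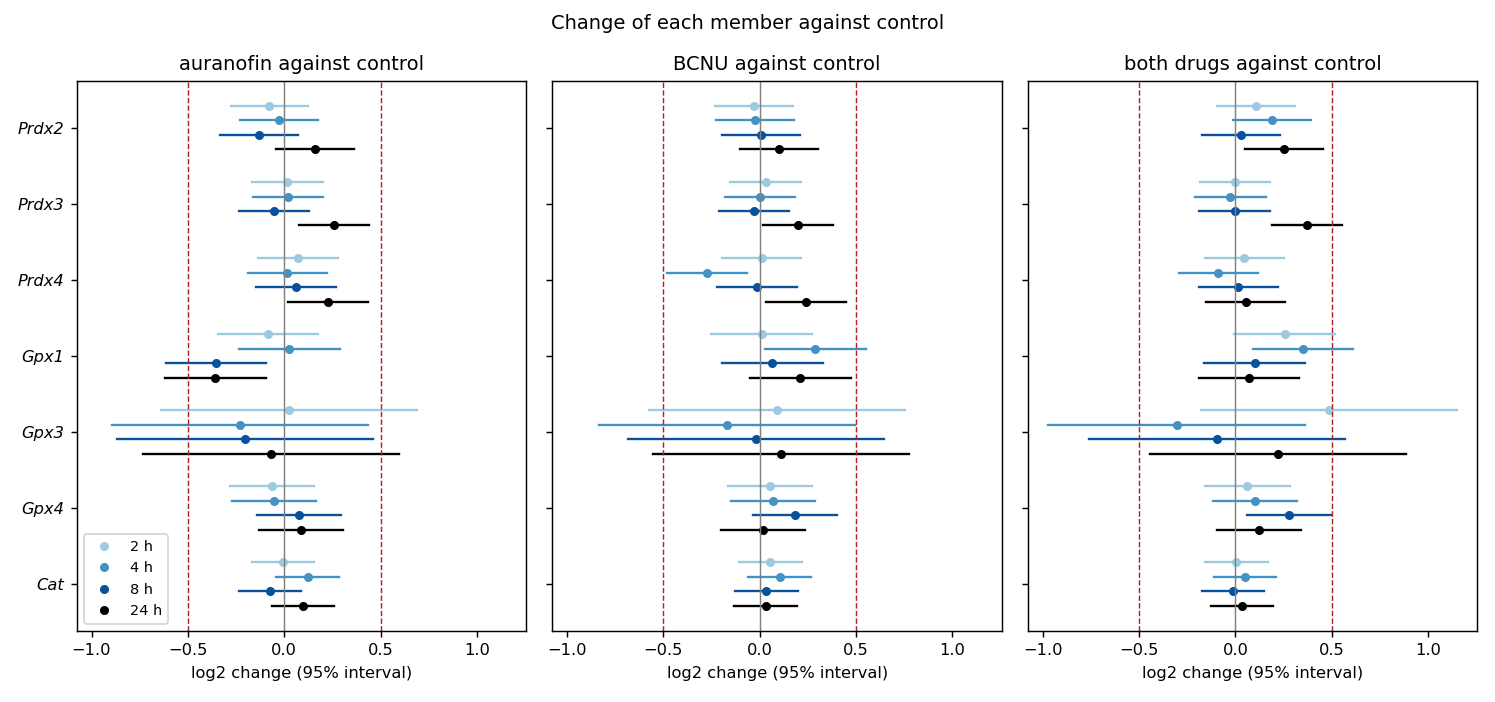
Log2 change of each measured gene against control with its 95% interval, for auranofin, BCNU and both drugs at 2, 4, 8 and 24 h, with dashed lines at the call threshold of 0.5. The intervals of Cat, Prdx2, Prdx4 and Gpx4 stay inside the dashed lines, and those of Gpx3 cross them at every time.

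The shares of all genes called are the background for these counts. With both drugs 1.49%, 5.84%, 11.3% and 9.13% of the 21506 genes were called at 2, 4, 8 and 24 h. With auranofin the shares were 0.0697%, 0.284%, 1.43% and 1.28%, and with BCNU they were 0.0465%, 0.79%, 2.26% and 0.191%. Between both drugs and auranofin they were 0.851%, 5.29%, 10.5% and 7.42%, and between both drugs and BCNU 0.837%, 3.35%, 9.26% and 8.29%. The interaction gave 0.0558%, 1.57%, 7.46% and 3.77%, and the later controls against 0 h gave 0% at each of the 3 times. For the effect at 24 h against the early effect the shares were 3.12% with both drugs, 0.139% with auranofin and 0.614% with BCNU. For auranofin against BCNU they were 0.0186%, 0.316%, 0.874% and 2.16%. At an unadjusted p under 0.05, 12 of the 84 member values against control passed, 14.3% against 13.5% over all genes. With both drugs it was 14.3% against 22% over all genes, with auranofin 14.3% against 8.87%, and with BCNU 14.3% against 9.67%. Between both drugs and 1 drug it was 10.7% against 20.4%, and for the interaction 7.14% against 14.4%. These shares come from 28 or 56 member values each and were not tested. Over the 16 group means the 21 pairs of genes correlated with each other at -0.32 to 0.53 (Pearson's r, as a description, since all values come from the same arrays).

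Some of the recycling enzymes and their partners, a list that also holds the sestrins and Txnip, did move. Over all genes 1.49%, 5.84%, 11.3% and 9.13% were called with both drugs at 2, 4, 8 and 24 h, in either direction. Of the 16 recycling partners, all measured, 1, 3, 3 and 5 rose with both drugs at 2, 4, 8 and 24 h, and 0, 1, 1 and 1 fell. Their median change was 0.08, 0.05, 0.09 and 0.19 at these times, beside 0.00027, 0.03, 0.05 and 0.01 over all genes. The 2 h call was Sesn2 (0.67), and it was lost without either 0 h array (0.59 and 0.75) or without the first both-drugs array (0.42). Txnrd1, cytosolic thioredoxin reductase and a target of auranofin, rose by 0.91, 1.603 and 1.56 log2 units at 4, 8 and 24 h (adjusted p = 2.2e-05, adjusted p = 6.04e-09 and adjusted p = 3.8e-09). Srxn1, sulfiredoxin, which restores overoxidised peroxiredoxins, rose by 0.77, 1.36 and 1.301, and the 4 h call was lost without the second control array (0.50, adjusted p = 0.111) or the second both-drugs array (0.60, adjusted p = 0.0583). Sesn2, a stress-induced sestrin, rose by 1.42, 1.99 and 1.46 at 4, 8 and 24 h. Txn1, thioredoxin itself, rose by 0.65 at 24 h (adjusted p = 0.00042), and Gsr, glutathione reductase and the target of BCNU, by 0.52 (adjusted p = 0.00153), a call lost without the first control array (0.45) or the second both-drugs array (0.49), with each array centred on its median (0.47), and against the mean of all controls (0.49). Sesn3, another sestrin, fell by 0.56, 0.73 and 0.56 at 4, 8 and 24 h, and the calls at 4 and 24 h were lost when some single array was left out.

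The single-drug values of the same genes stand beside these, and differences between their time courses were not tested. With auranofin Srxn1 rose by 1.18, 1.96 and 1.42 and Txnrd1 by 1.17, 1.20 and 0.75 at 4, 8 and 24 h, and Gsr rose by 0.77 and 0.58 at 8 and 24 h, the latter lost without the first auranofin array (0.43, adjusted p = 0.121) or the first control array (0.52, adjusted p = 0.0621). With BCNU Srxn1 rose by 1.02 (0.74 and not called without the second control array) and 1.82 and Txnrd1 by 1.05 and 1.24 at 4 and 8 h, whereas at 24 h their changes were -0.34 (adjusted p = 0.623) and -0.03 (adjusted p = 0.990). Sesn2 was called with neither drug alone, with changes of -0.06 to 0.46. With BCNU at 8 h Sesn3 fell by 0.60 (adjusted p = 0.0028) and Sesn1, also a sestrin, by 0.60 (adjusted p = 0.0113). The Sesn1 call was lost when some single array was left out. The mitochondrial partners of Prdx3, Txn2 and Txnrd2, were called in none of the 12 comparisons, with changes of -0.12 to 0.13 and -0.29 to 0.01.

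**Figure D3:**
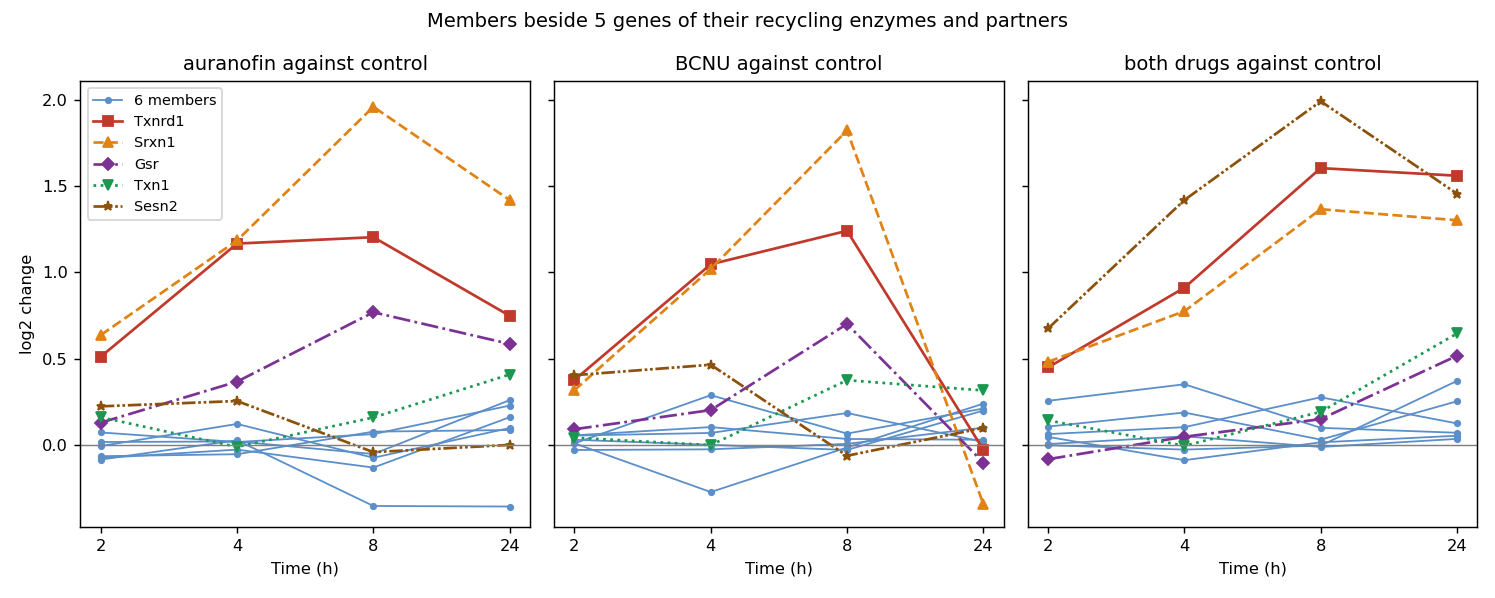
Log2 change against control at 2, 4, 8 and 24 h for the 6 genes measured above background (blue lines; Gpx3 is left out) and for Txnrd1, Srxn1, Gsr, Txn1 and Sesn2, with 1 panel each for auranofin, BCNU and both drugs. The blue lines stay between -0.36 and 0.37, while Txnrd1 and Srxn1 exceed 1.2 at 8 h in all 3 panels.

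The reference genes of NRF2 rose in larger number: 3, 8, 9 and 10 of the 13 measured with both drugs at 2, 4, 8 and 24 h, and none fell. Over all genes the shares called, in either direction, were 1.49%, 5.84%, 11.3% and 9.13%. The list shares Txnrd1 and Srxn1 with the recycling partners and was chosen with earlier results of these data known. In fits with only the groups compared, 52 of its 79 called values were lost, and some were lost when a single array was left out. The genes that rose included Hmox1, haem oxygenase, at 2.48 log2 units at 24 h, and Nqo1, a quinone reductase, at 2.27. Nfe2l2, which encodes NRF2, rose by 0.55 at 4 h and 0.94 at 8 h, and Bach1, a repressor at the same element, by 0.98 at 8 h. Among the genes that bear on peroxide supply, 3 of 13 rose at 8 h and 3 rose and 2 fell at 24 h. The 3 at 8 h, Acox2, Cyba and Smox, each lost the call when some control or co-treated array was left out, as did Acox2 and Sod3 at 24 h. At 24 h Maoa, a mitochondrial amine oxidase that releases peroxide, rose by 0.85 and Nox4, an NADPH oxidase, fell by 0.91 (adjusted p = 0.00458).

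Of 20 genes of peroxisome biogenesis, the compartment of catalase, none was called in the 12 treatment comparisons. Of 9 genes of selenoprotein synthesis and selenium uptake, on which Gpx1 and Gpx4 depend, Sephs1, a selenophosphate synthetase paralogue, fell by 0.74 at 8 h of co-treatment, and Lrp8, a receptor for selenoprotein P, rose by 1.37 at 24 h and by 1.42 with auranofin (0.90 and not called without the first auranofin array). Of the 5 other glutathione peroxidases, Gpx5 was higher by 0.65 at 24 h with both drugs (adjusted p = 0.0366) and Gpx8 by 0.61 at 24 h with auranofin (adjusted p = 0.0147). Neither call stood without single arrays: Gpx5 was 0.19 without the second both-drugs array (adjusted p = 0.627) and 0.68 and 0.63, not called, without either control array. Gpx8 was 0.47 without the second control array (adjusted p = 0.226) and 0.56, not called, without the first auranofin array. Of 8 regulators, Ppargc1a, a coactivator of oxidative metabolism, fell by 1.00 at 24 h with both drugs, and Foxo1, a factor known to act on Cat, by 0.62.

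**Figure D4:**
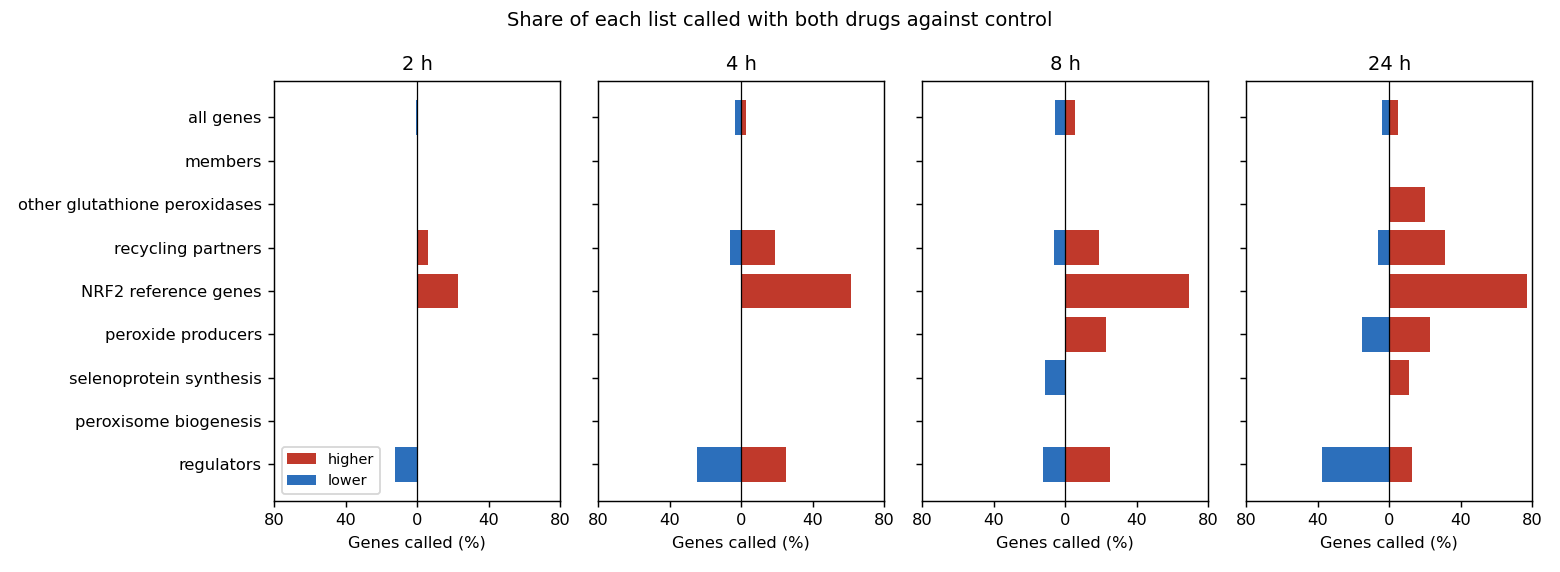
Percent of each list's measured genes called higher (right) or lower (left) with both drugs against control, in 1 panel per time, beside all genes and the 7 measured peroxidase genes (members). The row of members is empty at all 4 times, where 1.49%, 5.84%, 11.3% and 9.13% of all genes were called. The NRF2 reference genes have the longest bars to the right.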

How the data were processed

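RNA of 3T3-L1 adipocytes was hybridised to mouse gene arrays. The deposited values are log2 expression from RMA (background correction, quantile normalization, probe summary) by the authors, with transcripts lacking an approved symbol removed. RMA is blind to a shift shared by all genes, and the number of arrays, 2 per group, limits the precision. Symbols came from the platform annotation (465 genes with several probe sets were taken as their median; 685 probe sets with several symbols and 2578 with none were left out). Group means of all 32 arrays were fitted in limma 3.58.1 (R 4.3.3), and p-values were adjusted by Benjamini-Hochberg over 21506 genes within each comparison. The code was tested on simulated data. Every member was to be named, with up to 4 called genes per list and comparison by size of change. Alternatives were median centring, cyclic loess, other probe rules, a level filter, a trended prior, separate fits, a replicate block, other controls and thresholds, and single arrays left out. The members and lists were chosen with earlier results of these data known. Sequences were read from RefSeq promoter windows.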

Additional observations from a re-analysis of the deposited data

Results flagged for a closer look

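Gpx1 differed between treatments in 3 comparisons: by 0.45 at 8 h and 0.43 at 24 h between both drugs and auranofin (adjusted p = 0.0168 and adjusted p = 0.0309 in limma), and by -0.57 at 24 h between auranofin and BCNU (adjusted p = 0.0137). The last comparison was added after the values were seen.

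The probe set that carries the symbols Prdx1, AV051173 and Gm21399 stood outside the member rule, and its signal cannot be given to 1 of the 3. Its log2 level ran from 3.24 to 4.26 over the 32 arrays. It was higher with both drugs than with auranofin at 24 h by 0.57 ± 0.178 (adjusted p = 0.0436), with 4.02 and 3.82 against 3.46 and 3.24, and lower with both drugs than with BCNU at 4 h by 0.69 (log2 change -0.69, adjusted p = 0.0266), with 3.56 and 3.27 against 3.95 and 4.26. Against control it was called in none of the 12 comparisons, and at 24 h of co-treatment it was 0.38 higher (adjusted p = 0.185). Groups of 2 arrays are too small for an outlier test.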

How the results depend on the processing

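The count of 0 called genes held for auranofin, BCNU, the interaction and the later controls under every alternative run. With both drugs against control it became 1 with the adjusted p alone (Prdx3 at 24 h) and 1 with the 4 h control for the 2 h comparisons (Gpx1). With both drugs against 1 drug it became 2 with the adjusted p alone (Gpx1 at 8 and 24 h) and 2 when the probe set of several symbols was kept. With single arrays left out the counts ranged from 0 to 1 for both drugs against 1 drug, from 0 to 1 for the effect at 24 h against the early effect, and from 0 to 1 for auranofin against BCNU. The 1 call for auranofin against BCNU became 0 when only those groups were fitted (adjusted p = 0.327) and 0 at an absolute log2 change over 1. In fits with only the groups compared, 22 of the 30 called values of the recycling partners were also lost, and 8 of the 30 were lost when some single array was left out. Of 3683 recomputed member values 253 changed sign, none of them called in either fit. Among the calls named, median centring ended those with both drugs of Acox2 and Smox at 8 h and of Gpx5 and Gsr at 24 h, and the mean of all controls those of Cyba at 8 h and Gsr at 24 h, and of Gpx8 with auranofin at 24 h.

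Centring each array on its median moved the median of all genes by -0.11 for both drugs against auranofin at 8 h, where Gpx1 then gave 0.34 (adjusted p = 0.064). It also changed the genes called with both drugs at 8 h from 1231 higher and 1201 lower to 886 higher and 1591 lower. The replicate numbers did not pair the samples (deviations of same-numbered arrays correlated at -0.048 to 0.0617 over 120 group pairs), and with the replicate block the member calls were 0 in every designed comparison. Low signal limits Gpx3, and 2 arrays per group limit all values.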
